A study of Mus musculus with 25 samples.

Results

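The microRNA precursors mmu-mir-486a and mmu-mir-486b, called mir-486a and mir-486b from here, were examined in mouse blood across the adult lifespan. They are 2 of the 1193 precursor rows in the deposited count table, and they were chosen by name, not by any measured value. Blood came from male C57BL/6 mice, an inbred laboratory strain, aged 2, 9, 15, 24 or 30 months. There were 5 small RNA libraries at each age and 25 in all, and the labels name no genetic change or treatment in any group. The labels number each library separately but do not say in words that each came from another mouse, so p-values measure the spread between these libraries.

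A precursor is the hairpin RNA from which a short mature microRNA is cut. The mature strand guides Argonaute proteins to messenger RNAs, mainly through its seed, which is bases 2 to 8. The mir-486 hairpin lies within Ank1, the gene of ankyrin-1, which ties the spectrin skeleton of the red cell to its membrane. mir-486 is known as an abundant microRNA of red cells and of striated muscle, and in muscle it is made from a promoter inside Ank1. The locus usually compared with it in red cells holds mir-144 and mir-451a. mir-451a is unusual in that its hairpin is cut by the Argonaute protein AGO2 and not by Dicer.

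In the GRCm38 assembly with the GENCODE vM21 annotation, mir-486a (gene symbol Mir486) lies at chr8:23142555-23142682 on the plus strand. mir-486b (gene symbol Mir3107) lies at chr8:23142573-23142662 on the minus strand. The 90 bases of mir-486b therefore fall wholly inside the 128 bases of mir-486a, with 18 bases of mir-486a to the left and 20 to the right. Ank1 runs along the plus strand from 22974844 to 23150497 of the same chromosome, so mir-486a has its sense and mir-486b is antisense to it. Of 17 annotated Ank1 transcripts, 15 span the hairpins and 0 have an exon over them. The hairpins are intronic in each of the 15, and in 14 of these a single exon follows, so that the intron is the last. The nearest Ank1 exon ends 834 bases upstream and the next begins 5598 bases downstream. The sources used here do not give the build of the authors' own alignment, so these coordinates belong to the hairpin names in GRCm38.

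The mature strands of the precursors with which mir-486a is compared below are given 5′ to 3′ from the RefSeq table of GRCm38.p6, with the seed in capitals. The first 2 lines are the strands of the mir-451 hairpins, the comparison locus of red cells. The others are the 3p strands of mir-132, whose level had the highest Pearson r with mir-486a between libraries of the same age, and of mir-27b and mir-130a, which had the lowest. No seed was shared among them.
mmu-miR-451a: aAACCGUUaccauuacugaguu
mmu-miR-451b: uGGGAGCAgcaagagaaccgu
mmu-miR-132-3p: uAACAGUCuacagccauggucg
mmu-miR-27b-3p: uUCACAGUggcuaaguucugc
mmu-miR-130a-3p: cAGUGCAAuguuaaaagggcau

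Both mir-486 rows held nearly the same number in every library. Their counts differed by at most 0.15% of mir-486a, and mir-486a was the higher in 22 of 25 libraries. The difference divided by the square root of the sum of both counts, which would have an SD of 1 if the reads were divided at random, had a mean of 0.925 and an SD of 0.646 over the 25 libraries. mir-451a and mir-451b also lie on opposite strands of the same bases (chr11:78073170-78073241 in GRCm38), and for them the same quantity had a mean of 0.119 and an SD of 0.783. Reads of a hairpin and of its antisense partner cannot be told apart here, because the sources used here give neither the use of strand in counting nor the rule for reads that fit several hairpins. The values below are therefore those of mir-486a, and those of mir-486b follow them and are no independent measurement.

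Libraries held 4.884 to 24.25 M counts in total, with a median of 15.39 M. Depth differed with age, with means of 18.84 M at 2 months, 16.15 at 9, 18.2 at 15, 14.32 at 24 and 9.888 M at 30 months. The 30-month libraries held at most 13.07 M and the 2-month libraries at least 16.21 M, so these ranges did not overlap. The small RNA kit adds no molecular identifiers, and the Wilson interval below covers only the counting of reads, each taken as independent. Even in the smallest library, 24 months replicate 4, mir-486a took 27.457% of all counts with a 95% Wilson interval of 27.417 to 27.497%. Sequencing lanes are named in the column headers and were spread unevenly over the ages. The 3 libraries run on lane 3 (9 months replicate 1, 15 months replicate 2 and 24 months replicate 3) stood apart in mir-486a, so results are given with and without them. No library of 2 or 30 months was run on lane 3. Every library had its own index sequence, and in alphabetical order the indexes largely follow the ages, so index and age cannot be told apart.

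mir-486a and mir-486b were the most abundant and the second most abundant rows of the table. The level of mir-486a is given in kCPM (CPM divided by 1000), where CPM are counts scaled by a library size corrected with TMM (trimmed mean of M-values). At 2 months the libraries stood at 373.1, 354.4, 325.1, 320.9 and 318.0, with a mean of 338.3 ± 24.3 kCPM (SD, n = 5). At 9 months they stood at 221.3, 263.9, 358.3, 298.3 and 394.5, with a mean of 307.2 ± 69.9 kCPM (SD, n = 5). The youngest group was therefore the narrowest, and the 9-month libraries lay on both sides of it.

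At 15 months mir-486a stood at 366.0, 191.8, 297.1, 307.8 and 384.2 kCPM, with a mean of 309.4 ± 75.5 (SD, n = 5). At 24 months it stood at 227.0, 350.8, 191.2, 235.8 and 245.0, with a mean of 250.0 ± 59.9 kCPM (SD, n = 5), and at 30 months at 280.4, 288.8, 220.4, 341.5 and 246.1, with a mean of 275.5 ± 46.0 (SD, n = 5). In order of mean level the ages ran 2, 15, 9, 30 and 24 months from high to low, and the ranges overlapped in 10 of 10 pairs of ages, so no neighbours in that order were separated. Of the 5 libraries at each age, 3 at 9 months, 3 at 15 months, 4 at 24 months and 4 at 30 months lay below the lowest 2-month library. In 3 of these 4 ages the lowest library was a lane 3 library.

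**Figure D1:**
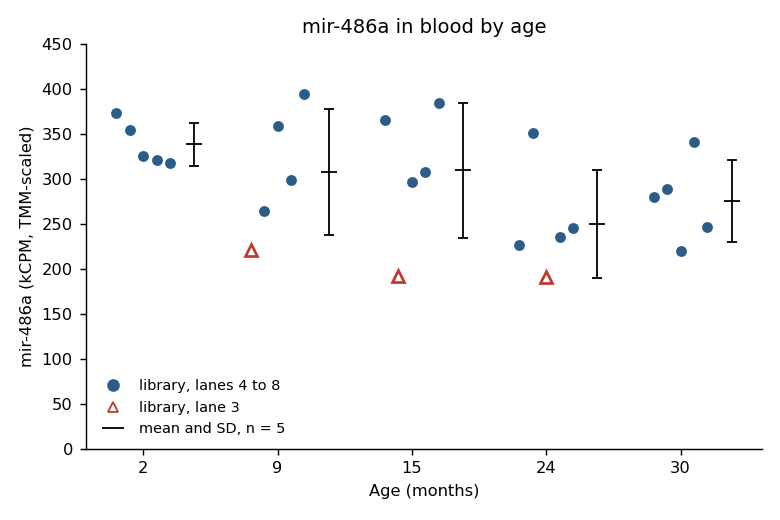
The level of mir-486a in TMM-scaled kCPM (vertical axis) is plotted for each of the 25 libraries by age in months (horizontal axis), with the mean and SD of each age beside the points and the lane 3 libraries marked. The 2-month libraries lie between 318.0 and 373.1 kCPM, and 4 of 5 libraries at 24 months and 4 of 5 at 30 months lie below that range.

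Across the 5 ages mir-486a did not pass the edgeR quasi-likelihood test (Benjamini-Hochberg adjusted p = 0.461), where 7.99% of the tested precursors were called at an adjusted p of 0.05. At 24 against 2 months its log2 change was -0.44 with an SE of 0.18 and a 95% interval of -0.79 to -0.09, and the edgeR adjusted p was 0.119, while 12.1% of precursors were called. At 30 against 2 months the log2 change was -0.30 with an SE of 0.18 and an edgeR adjusted p of 0.284, while 14.2% were called. Neither member of the locus was thus among the precursors called in old blood, although mir-486a was lower than the 2-month mean in 4 of 5 libraries at each of these ages. The lack of a call does not show that the level was unchanged. Leaving out 24 months replicate 2, the highest library of its age, moved the 24-month comparison to -0.52 with an edgeR adjusted p of 0.0447, which passes.

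The younger comparisons showed smaller differences. The log2 change was -0.14 (SE 0.18, edgeR adjusted p = 0.872) at 9 against 2 months and -0.13 (SE 0.18, edgeR adjusted p = 0.926) at 15 against 2 months, where 2.07% and 1.48% of precursors were called. Between neighbouring ages mir-486a differed by 0.01 at 15 against 9 months (SE 0.18, edgeR adjusted p = 0.997), by -0.31 at 24 against 15 months (SE 0.18, edgeR adjusted p = 0.569) and by 0.14 at 30 against 24 months (SE 0.18, edgeR adjusted p = 0.885). The called share was 0% at 15 against 9 months, 2.07% at 24 against 15 months and 0% at 30 against 24 months. In the comparisons with 0 calls, edgeR gave 7 and 13 precursors at an unadjusted p under 0.05, and DESeq2 and limma-voom also called 0.

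A straight line through the 5 ages fell by 0.13 on the log2 scale per 10 months for mir-486a, with an SE of 0.05 and an edgeR adjusted p of 0.0985, while 19.8% of precursors had a called trend. With the sequencing lane in the fit, the slope was -0.14 per 10 months and the edgeR adjusted p was 0.0331, which passes. With lane and TMM factors computed without mir-486 the edgeR adjusted p was 0.0547, and with lane and library totals the slope was -0.03 with an edgeR adjusted p of 0.16, so the call was lost in both. Without the 3 lane 3 libraries the slope was -0.10 and the edgeR adjusted p was 0.0875. With unscaled library totals in place of TMM it was -0.03 with an edgeR adjusted p of 0.44. The size of the slope therefore depended on the scaling by more than 1.5 times.

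**Figure D2:**
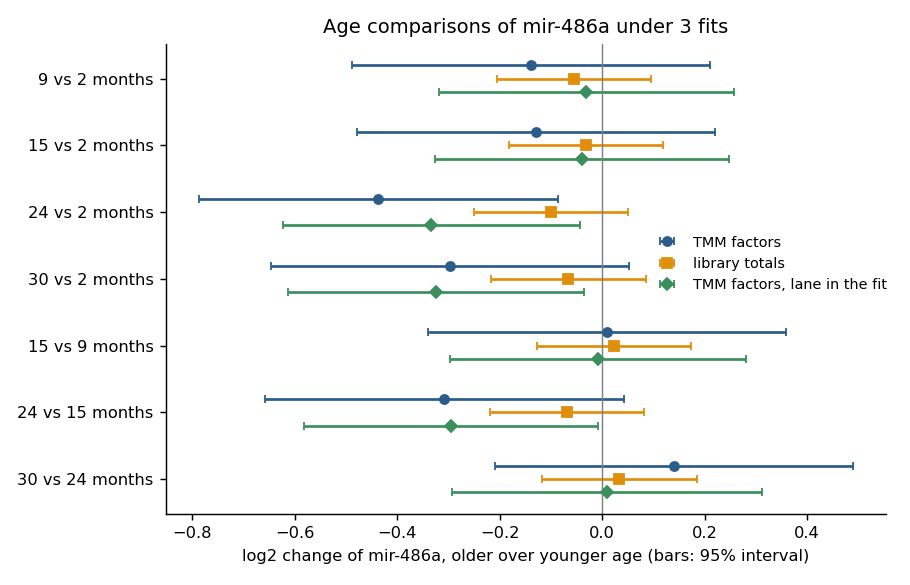
The log2 change of mir-486a, older over younger age (horizontal axis, bars are 95% intervals), is plotted for each pair of ages (vertical axis) from 3 edgeR fits of the 25 libraries, with TMM factors, with library totals, and with TMM factors and lane. At 24 against 2 months the change is -0.44 with TMM factors, -0.33 with lane in the fit and -0.10 with library totals, and none of the 3 has an adjusted p that passes.

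Both mir-486 rows also made up much of the library size that the scaling starts from. Together both mir-486 rows took between 48.51 and 65.21% of all counts, with a median of 58.84%, and over 50% in 23 of 25 libraries. If both rows hold the same reads, the share of the distinct reads is that of mir-486a in the total without mir-486b, which ran from 32.02 to 48.38% with a median of 41.69%. The mean TMM factor was 0.892 at 2 months, 0.971 at 9, 0.983 at 15, 1.148 at 24 and 1.058 at 30 months. It was lowest at the age with the highest mean CPM and highest at the age with the lowest. Over the 25 libraries, with the mean of each age subtracted, the log2 CPM of mir-486a and the log2 TMM factor had a Pearson r of -0.984, as a description of libraries that share this factor by construction. With the total count the r was 0.158. The unscaled library totals gave log2 changes of -0.10 at 24 against 2 months (edgeR adjusted p = 0.369) and -0.07 at 30 against 2 months. Both were smaller than with TMM by more than 1.5 times. With library totals that leave out both mir-486 rows and no factors, the changes were -0.20 (edgeR adjusted p = 0.44) and -0.15 (edgeR adjusted p = 0.594). With library sizes and TMM factors computed without mir-486 they were -0.40 (edgeR adjusted p = 0.171) and -0.26 (edgeR adjusted p = 0.378), and with relative log expression factors -0.44 and -0.32, so these kept close to the TMM values. The direction was the same in each of these scalings.

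**Figure D3:**
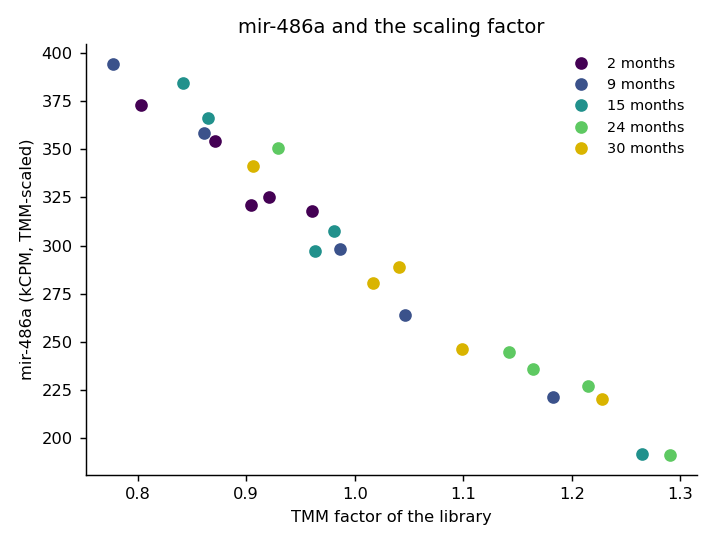
The level of mir-486a in kCPM is plotted against the TMM factor of the same library for the 25 libraries, coloured by age. Libraries with a higher factor have a lower CPM, and with the mean of each age subtracted the r between their log2 values is -0.984.

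Quantities within a library need no scaling factor. The share of all counts in mir-486a at 2 months was 29.97, 30.86, 29.96, 29.0 and 30.55%, with a mean of 30.07 ± 0.71% (SD, n = 5). At 24 months it was 27.58, 32.61, 24.66, 27.46 and 27.99%, with a mean of 28.06 ± 2.86% (SD, n = 5). At 30 months it was 28.51, 30.05, 27.07, 30.96 and 27.04%, with a mean of 28.73 ± 1.76% (SD, n = 5). At each of these ages 4 of 5 libraries lay below the 2-month mean, and the ranges overlapped. The 9-month share was 28.95 ± 2.02% and the 15-month share was 29.42 ± 3.22% (SD, n = 5), so the ages kept the same order as in CPM.

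The difference in share was -2.01 percentage points at 24 against 2 months (exact two-sided permutation test, p = 0.183, adjusted p = 0.909) and -1.34 points at 30 against 2 months (exact permutation p = 0.183, adjusted p = 0.909). The adjustment was over 21 tests, which were 3 within-library quantities in 7 pairs of ages. The smallest exact p that 5 against 5 libraries can reach is 0.00794. A single comparison that reached it alone would not pass this adjustment, so a lack of calls says little about any 1 pair of ages. With mir-486b left out of the total, the differences were -3.82 and -2.63 points (exact permutation p = 0.183 for each, adjusted p = 0.917). As single libraries were left out, the difference at 24 against 2 months ranged from -3.15 without 24 months replicate 2 to -1.16 without 24 months replicate 3. The ranges of these ages did not overlap without 24 months replicate 2, where the exact permutation p was 0.00794 and the adjusted p 0.167. None of the 21 exact permutation tests passed, with adjusted p from 0.909 to 0.992. The smallest unadjusted value was an exact permutation p of 0.103.

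mir-451a, the other leading red cell microRNA, gives a reference within the same library. The count of mir-486a was 3.34, 3.29, 3.99, 3.49 and 3.96 times that of mir-451a in the 2-month libraries, with a mean ratio of 3.61 ± 0.337 (SD, n = 5). The mean ratio was 3.25 ± 0.237 at 9 months, 3.60 ± 0.773 at 15, 3.63 ± 0.868 at 24 and 3.37 ± 0.28 at 30 months (SD, n = 5 each). The ratio had no order in age, and the spread was widest at 15 and 24 months. Its lowest values, 2.39 in 24 months replicate 3 and 2.53 in 15 months replicate 2, were both in lane 3 libraries. The log2 ratio differed by -0.15 at 9 against 2 months, with all 5 older libraries below the 2-month mean (exact permutation p = 0.103, adjusted p = 0.909). Set against the summed counts of 15 erythroid markers with mir-451a among them, the mean ratio of mir-486a was 1.46 at 2 months, 1.36 at 9, 1.43 at 15, 1.25 at 24 and 1.32 at 30 months, with ranges that overlapped in 10 of 10 pairs of ages.

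**Figure D4:**
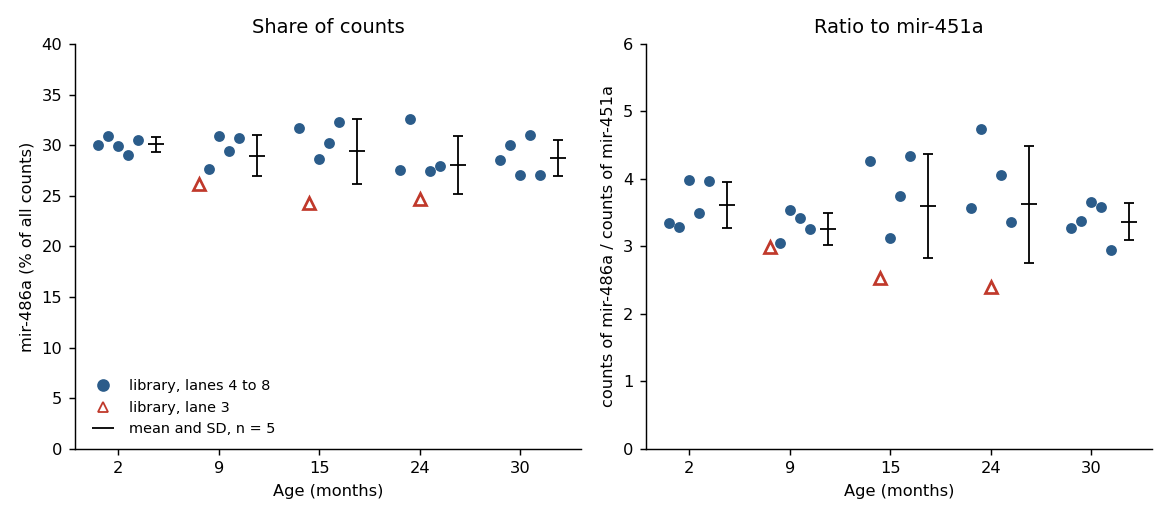
The share of all counts in mir-486a (percent) and its ratio to mir-451a are plotted for each library by age in months, with the mean and SD of each age. The ranges of the ages overlap in both plots, and the lowest points at 9, 15 and 24 months in the share are lane 3 libraries.

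The 3 lane 3 libraries were low in mir-486a by every measure. Their shares were 24.26 to 26.17%, against 27.04 to 32.61% in the other 22 libraries, so these ranges did not overlap. In CPM they stood at 191.2 to 221.3 kCPM against 220.4 to 394.5 kCPM, and in the ratio to mir-451a at 2.39 to 2.99 against 2.95 to 4.74. In an edgeR fit with age and lane, made after these values had been seen, mir-486a was lower in lane 3 than in the mean of lanes 4 to 8 by a log2 difference of -0.62 (SE 0.152). This difference prompted the fit, so it is a description with no test. Of all tested precursors 10 (2.96%) were called, 7 lower and 3 higher in lane 3. mir-451a differed by -0.10 (edgeR adjusted p = 0.825). Among the 10 were mir-486b with the same difference, mir-19b-1 at -0.59, mir-19b-2 at -0.57 and mir-7a-1 at -0.44, and the 3 higher were mir-127 at 0.49, mir-434 at 0.59 and mir-381 at 1.04. The largest differences were those of let-7j at -6.55 and mir-378d at -5.30, with means of 60.48 and 11.57 CPM over the 25 libraries. let-7j stood at 0.473 to 0.773 CPM in lane 3 and at least 12.7 CPM in the other 22 libraries. Whether the lane or these 3 samples themselves carried the difference cannot be told apart.

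Without the lane 3 libraries the mean of mir-486a was 338.3 kCPM at 2 months, 328.7 ± 58.7 at 9, 338.8 ± 42.8 at 15, 264.7 ± 57.9 at 24 (SD, n = 4 each) and 275.5 at 30 months. The 9- and 15-month means were then near that at 2 months, and the 24- and 30-month means stayed lower. The log2 change at 24 against 2 months was then -0.29 (edgeR adjusted p = 0.206), which is smaller than with them by more than 1.5 times, and that at 15 against 2 months turned to 0.02. Each older library was also set against the 2-month library of its own lane. 30 months replicates 1 and 5 were both on lane 6 and were set against the same 2-month library. The same 2-month libraries also served several ages, so these differences are not independent. At 30 months 5 of 5 libraries were lower in CPM, by a mean log2 difference of -0.27. At 24 months 3 of 4 were lower, and the mean over all 4 was -0.39. At 9 months 2 of 4 were lower and at 15 months 2 of 4. In share, 3 of 5 libraries were lower at 30 months and 3 of 4 at 24 months. The means over all 5 and all 4 were -1.34 and -1.19 percentage points.

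**Figure D5:**
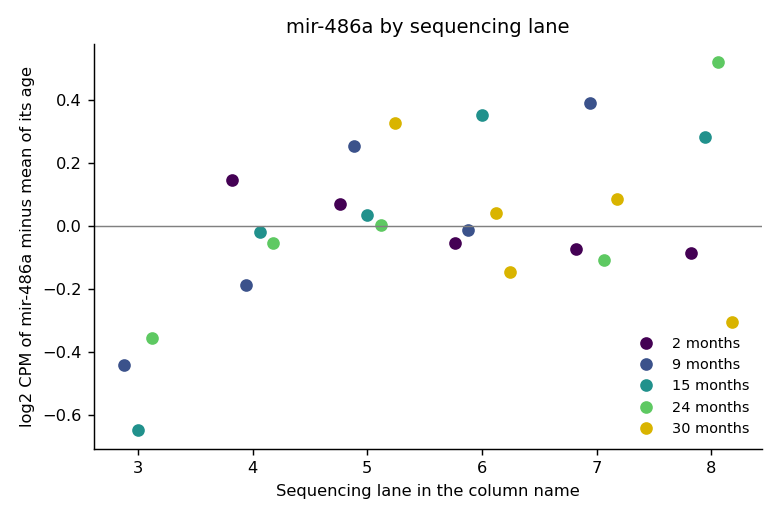
The log2 CPM of mir-486a minus the mean of its age (vertical axis) is plotted for each of the 25 libraries by sequencing lane (horizontal axis), coloured by age. The 3 libraries of lane 3 lie between -0.65 and -0.36, and the 22 libraries of lanes 4 to 8 lie at -0.31 or above.

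Markers of red cells and of muscle were read in the same libraries. Their levels in bulk blood cannot show which cells mir-486a came from. The list of 15 erythroid precursors had 14 that were abundant enough to test, all but mir-96, and its summed level had a mean of 233300 CPM at 2 months, 224600 at 9, 216000 at 15, 200700 at 24 and 209500 at 30 months, with none of the 15 at 0 in every library. The 10 muscle precursors summed to 7.386 to 237.9 CPM over the 25 libraries. The muscle microRNA mir-206 was at 0 in all 25, and mir-1a-1 had 0 or 1 count. In contrast mir-133a-1, with 19 to 1644 counts, mir-133a-2, with 17 to 1657, and mir-499, with 1 to 40 and a median of 9, were detected in all 25. At 24 against 2 months 1 of these 3, which were the tested muscle precursors, was called, where 12.1% of all precursors were. mir-499 fell by 1.56 on the log2 scale (edgeR adjusted p = 0.0375), and mir-133a-1 and mir-133a-2 stood at -1.01 and -1.09 without passing. The part of muscle RNA in the level of mir-486a was not tested. In bulk blood, fewer cells of a type and less RNA per cell cannot be told apart.

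Of the 14 tested erythroid precursors, 1 rose and 2 fell at 24 against 2 months, a share of calls to be read against 12.1% of all precursors. mir-451a fell by 0.44 on the log2 scale (SE 0.14, edgeR adjusted p = 0.0375), which is the same size as the change of mir-486a, whose spread was wider. mir-144, which shares a transcript with mir-451a, fell by 1.06 (edgeR adjusted p = 0.0486), and mir-182 rose by 0.97 (edgeR adjusted p = 0.0486). The call of mir-451a was lost in 21 of 27 alternatives, including each of the 10 that left out a library of these ages, although with single libraries left out its log2 change was -0.46 to -0.33. With library totals it was -0.07 (edgeR adjusted p = 0.638). The calls of mir-144 and mir-182 were lost in 20 and 13 of 27, with log2 changes of -1.18 to -0.65 and of 0.53 to 1.43 over these alternatives. Without the lane 3 libraries 1 rose (mir-182) and 1 fell (mir-451a), against 11.2% of all precursors called. The median of the list was -0.12, against -0.0037 over all tested precursors.

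At 30 against 2 months 2 of the 14 rose and 1 fell, against 14.2% of all precursors called. mir-182 rose by 1.42 (SE 0.32, edgeR adjusted p = 0.00652) and mir-183, from the same cluster, by 0.80 (SE 0.24, edgeR adjusted p = 0.0285). mir-144 fell by 1.41 (SE 0.35, edgeR adjusted p = 0.0101), and mir-451a stood at -0.21 (edgeR adjusted p = 0.347). The call of mir-144 was lost in 4 of 27 alternatives and that of mir-183 in 3 of 26, among them the fit without 30 months replicate 3. Without the lane 3 libraries the same 3 were called, against 15.9% of all precursors. These 3 of the 14 also had a called trend over the 5 ages, against 19.8% of all precursors. mir-182 and mir-183 went upward and mir-144 downward by 0.49 per 10 months (edgeR adjusted p = 0.0018). The median of the list at 30 months was -0.12, against -0.04 over all tested precursors. mir-486a, at -0.30, was not among the erythroid precursors that passed at this age.

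Between libraries of the same age, mir-486a had an SD of 0.297 in log2 CPM, which was the 82nd lowest of 152 precursors with a mean of at least 10 CPM. The SD was 0.215 for mir-451a, 0.195 for mir-22, 0.144 for mir-92a-1 and 0.513 for mir-16-1, which are all erythroid precursors. On this scale the locus lay near the middle of the order. The spread depended on the scale, since the CV within an age was 2.36 to 10.9% for the share of all counts against 7.18% at 2 months to 24.4% at 15 months in kCPM.

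The precursors most like mir-486a were taken from 150 candidates by the Pearson r of log2 CPM over the 25 libraries, after the mean of each age was subtracted. These values describe libraries that share a scaling factor, and no test was made of them. The highest were mir-132 with an r of 0.745, mir-30d with 0.71, mir-674 with 0.687, mir-7a-1 with 0.684 and mir-19b-2 with 0.681, and the median of all candidates was 0.0964. Without 15 months replicate 2 and 24 months replicate 2, the libraries farthest from the median of mir-486a, these were 0.635, 0.656, 0.64, 0.648 and 0.712. Spearman's rho over the 25 libraries was 0.65 for mir-132 and 0.718 for mir-30d. Without subtracting the mean of each age, r was 0.211 for mir-132 and 0.735 for mir-30d, so the order among the 5 depended on the measure. Of the 5, mir-7a-1 and mir-19b-2 were also lower in lane 3.

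The lowest were mir-27b with an r of -0.772 and mir-130a with -0.767, with a Spearman's rho of -0.826 and -0.835. Without the same 2 libraries their r was -0.742 and -0.672. Erythroid precursors lay at both ends of the order. mir-451a had an r of 0.602 and stood 17th and mir-92a-1 had 0.568 and stood 20th, whereas mir-144 had -0.527 and mir-16-1 had -0.695 and stood 148th of 150.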

How the data were processed

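The deposited table holds raw counts of reads per microRNA precursor in 25 libraries, whose protocol, per the labels, was the TruSeq small RNA kit. The submitters' processing notes name bcl2fastq 1.8.4, Trimmomatic 0.36 and SAMtools 1.3.1-9, without roles. The sources used here give no aligner, counter, genome build or strand setting. Of 1193 rows, 328 were 0 in every library. Chi-square per degree of freedom was at least 124.9 in the 50 same-age pairs of libraries, so no pair looked like repeat sequencing of a single library. Each library was counted as its own replicate, although this check cannot show that each came from another mouse. Precursors kept by the default filter by age were tested in edgeR 4.0.16 (R 4.3.3) with TMM factors, 1 robust quasi-likelihood fit of all 25 libraries and Benjamini-Hochberg adjustment at 0.05 over the tested precursors of each comparison. The common biological coefficient of variation was 28.1%. The procedure was tested on simulated data. Alternatives used other scalings and filters, DESeq2 1.42.0, limma 3.58.1, lane as a term and libraries left out. Named precursors were the members, the mir-451 and mir-144 locus, tested erythroid and detected muscle markers, and the 5 most and 2 least like mir-486a. A further clause of that rule, on shared seeds, was not applied. Precursors named for lane 3 were picked with their values in view. The members, lists and rules were chosen with earlier results of these data known. Positions come from GENCODE vM21 and sequences from RefSeq, both on GRCm38.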

Additional observations from a re-analysis of the deposited data

How the results depend on the processing

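Of 517 alternatives run for results on mir-486a, 473 kept the direction and the side of the threshold, 2 came to pass and 42 turned the direction of a value that passed no test. The trend passed with lane in the fit (-0.0138 per month for mir-486a and for mir-486b). The 24 against 2 months change passed without 24 months replicate 2, and ranged from -0.52 to -0.32 as each library was left out. The lane 3 settings, and those that joined lane to another scaling, were chosen after seeing the data. For the turns of direction the cause was not tested.

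Direction turned as follows in log2 values, for mir-486a and then mir-486b. With lane in the fit, 15 against 9 months was -0.0082 and -0.0076. Without the lane 3 libraries, 15 against 2 months was 0.022 and 0.022, and with library totals as well it was 0.030 and 0.030, with 30 against 24 months at -0.0090 and -0.0099. With lane and library totals, 9 against 2 months was 0.0026 and 0.0023, 15 against 2 months 0.011 and 0.012, and 30 against 24 months -0.026 and -0.026. With lane and with library sizes and TMM factors computed without mir-486, 9 against 2 months was 0.015 and 0.015, 15 against 9 months -0.020 and -0.019, and 30 against 24 months -0.0023 and -0.0031. As single libraries were left out, 15 against 2 months ranged from -0.19 to 0.044 and from -0.19 to 0.045, and 15 against 9 months from -0.075 to 0.166 and from -0.075 to 0.166. mir-451a at 30 against 2 months was 0.032 with library totals, 0.032 with these and no lane 3 libraries, and 0.050 with these and lane.

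Without the lane 3 libraries, the share of mir-486a differed by 0.635 points at 15 against 2 months and by -0.18 at 30 against 24 months. Its log2 ratio to mir-451a then differed by 0.092 at 15 and 0.115 at 24 against 2 months, and its log2 ratio to the erythroid markers by 0.096 at 15 against 2 months. As single libraries were left out, the share ranged from -1.39 to 0.635 points at 15 against 2 months and from -0.264 to 1.76 at 15 against 9 months and from -0.18 to 1.81 at 30 against 24 months. The log2 ratio to mir-451a from -0.103 to 0.092 at 15 and from -0.131 to 0.115 at 24 against 2 months, from -0.118 to 0.143 at 24 against 15 months and from -0.216 to 0.030 at 30 against 24 months. The log2 ratio to the erythroid markers ranged from -0.151 to 0.096 at 15 against 2 months and from -0.037 to 0.210 at 15 against 9 months.

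The number of precursors called also moved. It was 27 for any age and 14 to 51 over the alternatives, 7 and 3 to 8 at 9 against 2 months, 5 and 2 to 5 at 15 against 2 months, 41 and 23 to 72 at 24 against 2 months, 48 and 15 to 62 at 30 against 2 months, and 67 and 9 to 90 for the trend, whose lowest count came without the 2-month group. At 24 against 15 months it was 7 and 0 to 20, with 0 in an edgeR fit of these ages alone (24 at an unadjusted p under 0.05), 10 in DESeq2 and 7 in limma-voom. No paired analysis by replicate number was possible because these numbers follow the order of deposit. Libraries were matched across ages by sequencing lane only. Depth limits little for mir-486a, whose spread between libraries is far above counting error. Mean depth was lowest at 30 months, and the part of depth in the changes of less abundant precursors was not tested.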

Other observations

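Blood also holds white cells and platelets, and their markers were read from the same libraries. The 6 neutrophil and monocyte precursors summed to a mean of 7744 CPM at 2 months, 9121 at 9, 8776 at 15, 8224 at 24 and 8778 at 30 months, far below mir-486a at each age. Nearly all of this sum was mir-142a, with a mean of 8183 CPM over the 25 libraries, against 109 CPM for mir-223. The sum therefore does not show the level of the less abundant members. In the edgeR fit 4 of these 6 rose at 24 against 2 months and 4 of 6 at 30 against 2 months, where 12.1% and 14.2% of all precursors were called, and 0 fell. The 4 were mir-223, a microRNA of granulocytes, and mir-23a, mir-24-2 and mir-27a, which share a cluster. Without the lane 3 libraries the same 4 passed in both comparisons, where 11.2% and 15.9% of all precursors were called. The 6 lymphocyte precursors summed to a mean of 1928 CPM at 2 months and 1570 at 30 months, and 0 of 6 passed the edgeR test in either comparison. The 4 platelet and endothelial precursors summed to a mean of 15.9 CPM at 2 months, 10.7 at 9, 13.5 at 15, 9.79 at 24 and 6.36 at 30 months. In the edgeR fit 1 of 4 fell at 24 against 2 months (median of the list -1.02), where 12.1% of all precursors were called. At 30 against 2 months 2 of 4 fell (median -1.17), where 14.2% were called. A downward trend was called for 3 of 4, where 19.8% of all precursors had a called trend. Without the lane 3 libraries these counts were 1, 2 and 2. The called shares of all precursors were then 11.2%, 15.9% and 19.1%.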
